A study of Mus musculus with 14 samples.

Results

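Polyamine metabolism was followed through 10 genes in mouse MLL-AF9-Cas9+ leukemia cells in which Sgf29, a reader subunit of the SAGA and ATAC histone acetyltransferase complexes, was targeted with CRISPR. The 10 genes were taken by symbol from the 22155 genes of the count table: Odc1, Amd1, Srm and Sms for synthesis, Sat1, Smox and Paox for catabolism, and Oaz1, Oaz2 and Azin1, which control ornithine decarboxylase. Messenger RNA was sequenced in 3 libraries of sgSgf29-transduced cells and in 3 libraries of cells that received sgCtrl, an sgRNA against nonessential sequence. According to the study's methods, both groups were leukemic blasts from irradiated mice transplanted with mouse bone marrow cells transformed by a retroviral MLL-AF9 fusion. They were cultured with cytokines, expressed Cas9, carried their sgRNA in a lentiviral vector and were selected in puromycin at 2 μg/ml for 3 days. The cells are a bulk population grown in culture, and the labels do not say whether the 3 numbers of a group mark separate cultures or different sgRNA sequences. The p-values therefore measure the spread between these libraries, which may be technical. The series holds 14 samples, and its 8 chromatin immunoprecipitation samples were not analysed here.

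Polyamines are small, positively charged molecules that bind nucleic acids and that proliferating cells need for growth and protein synthesis. Ornithine decarboxylase (Odc1) makes putrescine from ornithine, and spermidine synthase (Srm) and spermine synthase (Sms) then extend it with aminopropyl groups that come from decarboxylated S-adenosylmethionine, the product of Amd1. Sat1 acetylates spermidine and spermine, Paox oxidizes the acetylated forms back toward putrescine, and Smox oxidizes spermine directly. Antizymes, encoded by Oaz1 and Oaz2, bind ornithine decarboxylase and send it to the proteasome, whereas the antizyme inhibitor Azin1 captures antizyme and spares the enzyme. Much of this control acts on protein, which RNA-seq does not measure. Odc1 is also a textbook target of the transcription factor MYC, which binds with MAX to the E-box CACGTG, and ornithine decarboxylase is the target of the inhibitor difluoromethylornithine.

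The E-box letters were searched because the genes of synthesis moved together. CACGTG reads the same on both strands. RefSeq promoter windows on GRCm38.p6, from 250 bases before to 50 bases after each start, were matched for 8 of the 10 genes (Odc1, Amd1, Sms, Sat1, Smox, Paox, Oaz1 and Oaz2). Srm, a gene of synthesis, and Azin1 had no matched window and were not searched. Only Sms held the motif in this window, at position -196 from 1 of its 2 RefSeq starts and not in the window of the other, and 2187 of 27025 genes (8.09%) held it in theirs. In a longer window, to 1000 bases after the start and chosen after seeing the data, 3 of the 8 held it (Odc1, Sms and Paox), against 20.6% of all genes. Odc1 held it 2 times, as did 844 genes (3.12%) with 2 or more. Amd1 and Sat1, which were lower in sgSgf29 cells, held none in either window. Smox, Oaz1 and Oaz2 held none either, and Paox was not called. The longer window of the other Sms start held 1 separate match, more than 50 bases after that start, and that stretch is not shown. From genes called lower, 1 stretch shown is the start of the first intron of Odc1 (chr12:17545169-17545283, plus strand). Its paired motifs lie 325 and 365 bases after the RefSeq start. The other stretch shown is the region upstream of Sms with the match at -196 (chrX:157492418-157492537, minus strand). Capitals mark CACGTG, and a match is a description of letters and not of binding.
Odc1 intron 1: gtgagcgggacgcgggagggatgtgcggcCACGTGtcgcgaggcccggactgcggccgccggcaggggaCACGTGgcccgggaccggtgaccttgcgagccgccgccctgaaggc
Sms upstream: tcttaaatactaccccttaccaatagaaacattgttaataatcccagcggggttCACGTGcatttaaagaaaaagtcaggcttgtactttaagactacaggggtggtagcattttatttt

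The libraries held 16003990 to 21786618 reads assigned to genes. Levels are given as CPM, the usual counts scaled to a common total of assigned reads, after scaling by TMM, a factor that sets the bulk of genes level between libraries. Changes are log2 fold changes of sgSgf29 over sgCtrl from edgeR's quasi-likelihood test, adjusted by Benjamini-Hochberg over the 11169 genes that passed the filter on low counts, and a gene is called at an adjusted p under 0.05. Sgf29 itself measured 12.6, 13.4 and 17.4 CPM in the sgSgf29 libraries, against 36.2, 40.4 and 40.4 CPM in the sgCtrl libraries (log2 fold change -1.43, SE 0.11, adjusted p = 2.9e-10 by edgeR). Across the tested genes, 34.4% were called lower and 35.4% higher in sgSgf29 cells, so that 49.3% of the calls were lower. Without TMM, scaling to library size alone put that share at 30.0% and moved the median of all tested genes to a log2 fold change of 0.24, against 0.01 with TMM. All 8 markers listed for the labelled cell, a myeloid progenitor leukemia, were detected, 4 lower and 3 higher in sgSgf29 cells, with summed levels of 1216 to 1257 CPM in sgSgf29 and 1406 to 1485 CPM in sgCtrl libraries. Of 16 markers of mature myeloid cells, 15 were tested, 11 were higher and 3 lower, and their sum was 23861 to 25397 CPM in sgSgf29 libraries, against 8998 to 9402 CPM in sgCtrl libraries. Mrc1 was listed at 0. The part of these markers in the results on polyamine genes was not tested, and in bulk RNA fewer cells of a type cannot be told apart from less RNA per cell. Defining markers of erythroid cells (Hbb-bs and Hba-a1), megakaryocytes (Pf4), mast cells (Cpa3), B cells (Ms4a1), T cells (Cd3e) and fibroblasts (Col3a1) were listed at 0 in all 6 libraries, but other markers of these lists were detected at low levels. In each of 3 lists 1 gene was called lower, those of mast cells and basophils, of T and NK cells and of megakaryocytes. The summed levels of these lists were 2.39 to 3.37, 2.98 to 4.10 and 5.72 to 7.5 CPM in sgSgf29 libraries, against 9.37 to 9.99, 7.57 to 8.69 and 8.37 to 9.66 CPM in sgCtrl libraries. Whether a 0 in the table means no reads or a gene left out in counting was not tested.

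All 10 polyamine genes passed the filter on low counts. In sgSgf29 cells 5 were called lower (Odc1, Srm, Sms, Amd1 and Sat1), 2 higher (Oaz2 and Azin1) and 3 neither (Oaz1, Paox and Smox), where 34.4% of all tested genes were called lower and 35.4% higher. By role, synthesis had 4 of 4 genes lower, catabolism had 1 of 3 lower and none higher, and the antizymes and their inhibitor had 2 of 3 higher and none lower. The median log2 fold change was -1.01 for synthesis, 0.14 for catabolism and 0.37 for the antizymes and inhibitor, and -0.16 for all 10 genes. The groups of libraries did not overlap for the 5 genes called lower, nor for 3 above (Oaz2, Azin1 and Paox), where 35.1% of all tested genes lay wholly below and 37.0% wholly above. Tested against a change of 1.5-fold with edgeR's glmTreat, 3 of the 10 passed lower (Odc1, Srm and Sms) and 0 passed higher, where 9.15% of tested genes passed lower and 13.3% higher.

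**Figure D1:**
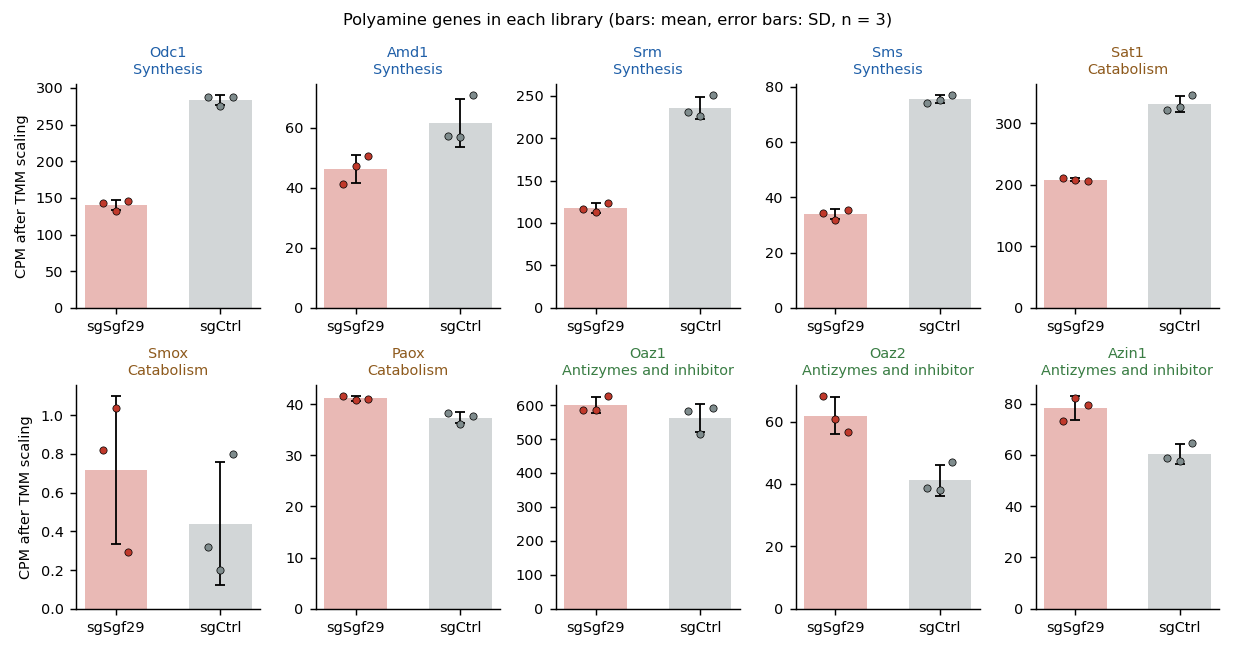
Levels of the 10 polyamine genes in CPM after TMM scaling (vertical axes, each starting at 0) in the 3 sgSgf29 and the 3 sgCtrl libraries (points), with bars for the mean and error bars for the SD. The sgSgf29 points lie below the sgCtrl points for Odc1, Amd1, Srm, Sms and Sat1, above them for Paox, Oaz2 and Azin1, and among them for Smox and Oaz1.

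Odc1, the entry enzyme of the pathway, was 2.02-fold lower in sgSgf29 cells. It lies at chr12:17544794-17551505 on the plus strand of GRCm38. Its level was 142.7, 132.0 and 145.5 CPM in the sgSgf29 libraries, against 287.4, 275.0 and 287.2 CPM in the sgCtrl libraries. The groups were tight and far apart, with means of 140.1 ± 7.11 CPM in sgSgf29 and 283.2 ± 7.12 CPM in sgCtrl cells (SD, n = 3 each). The log2 fold change was -1.02 (SE 0.06, adjusted p = 1.8e-11 by edgeR's quasi-likelihood test), and 4.48% of tested genes had a lower one. These values rest on 2436 to 2977 reads in the sgSgf29 and 4107 to 5749 reads in the sgCtrl libraries. Of the 100-base stretches of its annotated transcripts, 19.6% also occur in other annotated genes, mostly predicted genes, so that some reads from these stretches may not be assigned with certainty. This is a share of stretches and not of reads, since a longer read or its mate can reach past them.

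Srm and Sms, the aminopropyltransferases that act in turn after Odc1, were lower by sizes close to that of Odc1. Srm (chr4:148591503-148594993, plus strand) measured 116.2, 113.0 and 123.6 CPM in sgSgf29 libraries, against 230.3, 226.2 and 250.8 CPM in sgCtrl libraries. Every sgSgf29 library lay below every sgCtrl library, and the mean was 2.01-fold lower (log2 fold change -1.0, SE 0.07, adjusted p = 3.6e-11 by edgeR). None of the 100-base stretches of Srm occurs in another annotated gene. Sms (chrX:157443855-157492287, minus strand) measured 34.2, 31.9 and 35.6 CPM in sgSgf29 libraries, against 74.2, 75.3 and 77.0 CPM in sgCtrl libraries. At 2.23-fold, this was the largest fall among the 10 genes under the main scaling (log2 fold change -1.16, SE 0.07, adjusted p = 9.4e-12 by edgeR), and 2.95% of tested genes fell further. For Srm 4.62% of tested genes fell further, and 4.67% of all tested genes were called lower by 2-fold or more. Sms shares 27.1% of its 100-base stretches with the pseudogene Sms-ps and a predicted gene.

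Amd1, which supplies the aminopropyl donor, had the smallest change of the 4 genes of synthesis. It lies at chr10:40287458-40302186 on the minus strand and measured 41.2, 47.2 and 50.4 CPM in sgSgf29 libraries, against 57.1, 56.9 and 70.8 CPM in sgCtrl libraries. The highest sgSgf29 library was below the lowest sgCtrl library, but the spread inside each group was wide (46.3 ± 4.68 CPM in sgSgf29 and 61.6 ± 7.98 CPM in sgCtrl, SD, n = 3 each). The log2 fold change was -0.41 (SE 0.09, adjusted p = 0.00033 by edgeR), and 23.9% of tested genes had a lower one. Scaled to library size alone, the change was -0.18 with an adjusted p of 0.087 by edgeR, which is not called. Amd1 shares 75% of its 100-base stretches with its retrocopy Amd2 and with annotated pseudogenes, and some reads of these copies may not be assigned with certainty. Amd2 has few reads of its own, at 1.99, 2.07 and 3.08 CPM in sgSgf29 libraries, against 4.07, 2.95 and 3.95 CPM in sgCtrl libraries, and adding its counts to Amd1 gave a log2 fold change of -0.43 (adjusted p = 0.00025 by edgeR).

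Sat1, the acetyltransferase that starts polyamine breakdown and export, was the gene of catabolism that passed the test. It lies at chrX:155213132-155216449 on the minus strand and measured 210.7, 207.8 and 206.4 CPM in sgSgf29 libraries, against 322.1, 326.4 and 346.0 CPM in sgCtrl libraries. The sgSgf29 libraries lay close to each other and all were below the sgCtrl libraries. The mean was 1.59-fold lower, at a log2 fold change of -0.67 (SE 0.06, adjusted p = 5.9e-09 by edgeR's quasi-likelihood test), and against the 1.5-fold threshold its adjusted p was 0.11 by edgeR's glmTreat.

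The oxidases of polyamine breakdown were not called. Paox (chr7:140115799-140137224, plus strand) measured 41.6, 40.8 and 41.1 CPM in sgSgf29 libraries, against 38.3, 36.2 and 37.6 CPM in sgCtrl libraries. The groups did not overlap, yet the difference was small, at a log2 fold change of 0.14 (SE 0.07, adjusted p = 0.092 by edgeR). It was called under upper-quartile scaling (0.16, adjusted p = 0.048 by edgeR) and under library size scaling (0.37, adjusted p = 0.00015 by edgeR). Under the latter the median of all tested genes was itself 0.24, so that Paox stood 0.13 above it. Paox overlaps Echs1 on the opposite strand and shares 23.6% of its 100-base stretches with a predicted gene. Smox (chr2:131491496-131525922, plus strand), the spermine oxidase, was near the limit of detection, with 14, 23 and 6 reads in sgSgf29 libraries, against 5, 3 and 16 reads in sgCtrl libraries. Its groups overlapped, the log2 fold change of 0.61 had an SE of 0.53 (adjusted p = 0.31 by edgeR), and a difference was not detectable at this depth.

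Oaz1, the main antizyme, was the most abundant of the 10 genes and did not pass the test. It lies at chr10:80826656-80829290 on the plus strand and measured 585.6, 586.7 and 626.7 CPM in sgSgf29 libraries, against 581.3, 515.1 and 591.3 CPM in sgCtrl libraries. The groups overlapped, and the log2 fold change was 0.09 (SE 0.07, adjusted p = 0.25 by edgeR). Scaled to library size alone it was 0.32 (adjusted p = 0.00019 by edgeR), where the median of all tested genes was itself 0.24, so that Oaz1 stood 0.08 above that median. Oaz1 shares 32.2% of its 100-base stretches with the pseudogene Oaz1-ps.

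Oaz2, the second antizyme, was higher in sgSgf29 cells. It lies at chr9:65668001-65690300 on the plus strand and measured 68.2, 60.9 and 56.8 CPM in sgSgf29 libraries, against 38.8, 38.0 and 46.9 CPM in sgCtrl libraries. All sgSgf29 libraries lay above all sgCtrl libraries, at means of 62.0 ± 5.79 CPM in sgSgf29 and 41.2 ± 4.94 CPM in sgCtrl cells (SD, n = 3 each). The rise was 1.5-fold (log2 fold change 0.58, SE 0.09, adjusted p = 5.0e-06 by edgeR), and 19.7% of tested genes rose further. Azin1, which frees ornithine decarboxylase from antizyme, rose in the same cells. At chr15:38487427-38519266 on the minus strand, it measured 73.1, 82.4 and 79.4 CPM in sgSgf29 libraries, against 59.0, 57.5 and 64.8 CPM in sgCtrl libraries. The groups did not overlap, and the rise of 1.30-fold (log2 fold change 0.37, SE 0.07, adjusted p = 8.7e-05 by edgeR) was exceeded by 28.8% of tested genes. An antizyme and the inhibitor of antizymes were thus both higher. A predicted antisense gene overlaps Azin1, and none of its 100-base stretches occurs elsewhere.

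**Figure D2:**
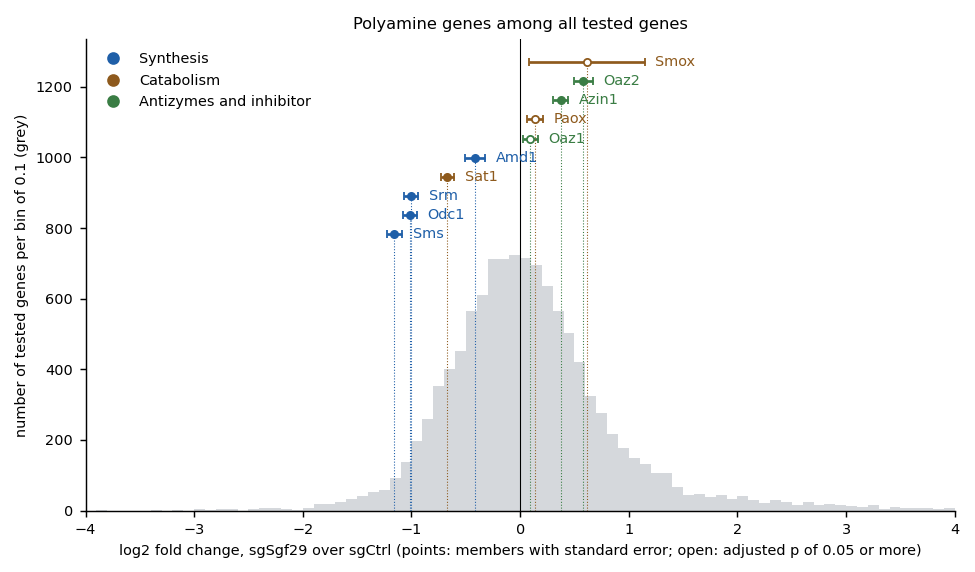
Log2 fold changes of sgSgf29 over sgCtrl (horizontal axis) for all tested genes, drawn as a grey histogram of genes per bin (51 of 11169 genes lie beyond a log2 fold change of 4 in either direction and are not drawn), with the 10 polyamine genes as points whose bars show the standard error. Filled points passed an adjusted p of 0.05, and dotted lines drop from each gene to its place in the histogram. Sms, Odc1 and Srm lie in the left tail between -1.16 and -1.0, and Oaz2 and Azin1 lie to the right at 0.58 and 0.37.

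Levels can be compared between genes only per length. For this, CPM was divided by the merged length, in kilobases, of the exons of all annotated protein-coding transcripts of a gene. Exons not used in these cells would make the length too long and the level too low, and their use was not tested. In sgSgf29 cells, Oaz1 was highest at 544.7 ± 21.3 CPM per kb, followed by Sat1 at 176.1 ± 1.87, Srm at 87.9 ± 4.06 and Odc1 at 63.4 ± 3.22 CPM per kb (SD, n = 3). Then came Oaz2 at 27.9 ± 2.61, Azin1 at 15.2 ± 0.916, Amd1 at 14.2 ± 1.43, Sms at 8.92 ± 0.492 and Paox at 8.39 ± 0.088 CPM per kb. The intervals of mean ± SD overlapped between Azin1 and Amd1, and between Sms and Paox. In sgCtrl cells, the same 4 genes led, with Oaz1 at 511.0 ± 37.6, Sat1 at 280.2 ± 10.8, Srm at 176.2 ± 9.84 and Odc1 at 128.3 ± 3.22 CPM per kb (SD, n = 3). Below them Sms at 19.9 ± 0.368, Amd1 at 18.9 ± 2.44 and Oaz2 at 18.6 ± 2.22 CPM per kb did not differ beyond their spread, and Azin1 at 11.7 ± 0.748 and Paox at 7.61 ± 0.219 CPM per kb stood lower. Smox was lowest in both groups, at 0.206 CPM per kb in sgSgf29 and 0.126 CPM per kb in sgCtrl cells. Sms, which shared its place with Oaz2 in sgCtrl cells, was thus below Oaz2, Azin1 and Amd1 in sgSgf29 cells. Genes that share stretches with copies, such as Amd1, Oaz1 and Sms, can be undercounted. Their places relative to genes without copies are therefore less certain than the SD shows.

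**Figure D3:**
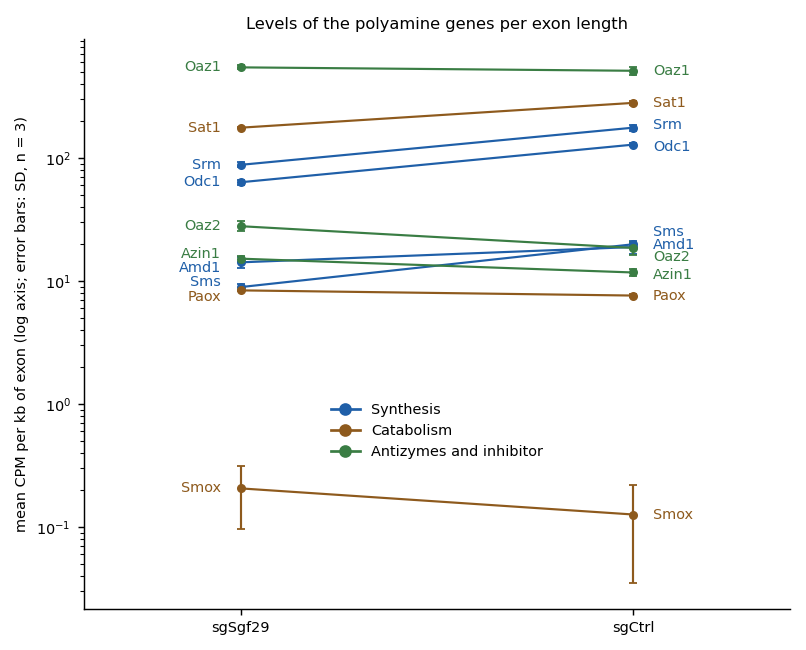
Mean CPM per kb of exon (vertical log axis) of the 10 polyamine genes in sgSgf29 cells (left) and sgCtrl cells (right), with error bars for the SD of 3 libraries and a line for each gene. Oaz1, Sat1, Srm and Odc1 keep the top places in both groups, and Sms is at 8.92 in sgSgf29 and 19.9 in sgCtrl cells.

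The balance between enzymes and their regulators was read as ratios of raw counts inside each library, which no scaling between libraries can change. The ratios are not corrected for length, so that only their difference between groups is read. With 3 libraries against 3, the smallest p-value that the exact permutation test allows is 0.1, and over the 8 pairs compared the smallest Benjamini-Hochberg adjusted value was 0.11, so that no pair could pass 0.05. The ratio of Odc1 to Oaz1 was 0.2437, 0.225 and 0.2321 in sgSgf29 libraries, against 0.4945, 0.5339 and 0.4857 in sgCtrl libraries, a log2 difference of -1.11 (exact two-sided permutation p = 0.1, adjusted p = 0.11). Odc1 over Azin1 was 1.952, 1.602 and 1.833 in sgSgf29 libraries, against 4.874, 4.781 and 4.433 in sgCtrl libraries, the widest gap of the 8 pairs at a log2 difference of -1.39 (exact permutation p = 0.1, adjusted p = 0.11). Both ratios were lower in every sgSgf29 library than in any sgCtrl library.

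Among the regulators, Azin1 over Oaz1 was 0.1249, 0.1404 and 0.1266 in sgSgf29 libraries, against 0.1015, 0.1117 and 0.1096 in sgCtrl libraries (log2 difference 0.28). Oaz1 over Oaz2 was 8.586, 9.635 and 11.04 in sgSgf29 libraries, against 14.97, 13.57 and 12.6 in sgCtrl libraries (log2 difference -0.50). Among the enzymes, Odc1 over Sat1 had a log2 difference of -0.35, Amd1 over Odc1 of 0.61 and Srm over Sms of 0.15. For these 5 pairs the groups did not overlap either, each with an exact permutation p of 0.1 and an adjusted p of 0.11. Smox over Paox overlapped between groups (log2 difference 0.62, exact permutation p = 0.5, adjusted p = 0.5). Nothing is read from the count of 7 of 8 pairs without overlap, since 35.1% of single tested genes lay wholly below and 37.0% wholly above, and the share among all pairs of genes was not computed. The difference for Smox over Paox was 0.20 without sgCtrl replicate 2, 0.26 without sgSgf29 replicate 2 and 1.17 without replicate 3 of either group.

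**Figure D4:**
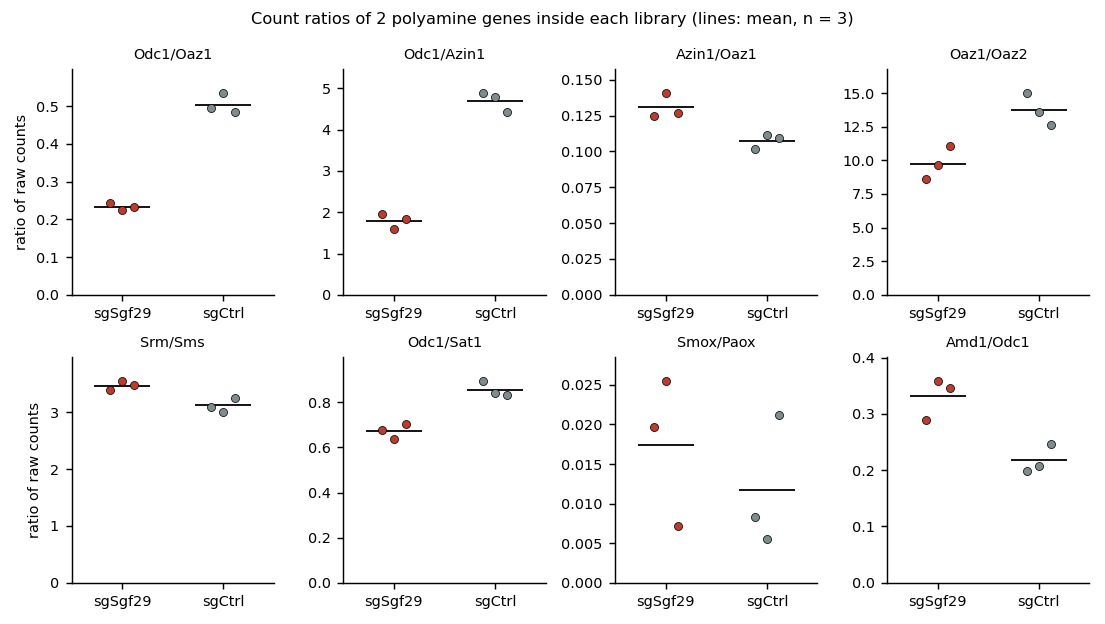
Ratios of the raw counts of 8 pairs of polyamine genes inside each library (vertical axes from 0, no unit), with a point for each of the 3 sgSgf29 and 3 sgCtrl libraries and a line for the mean. Odc1 over Oaz1 lies between 0.225 and 0.2437 in sgSgf29 and between 0.4857 and 0.5339 in sgCtrl libraries, and Smox over Paox is the pair whose groups overlap.

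Genes that feed, move or use polyamines were taken from 5 lists with 44 genes, of which 32 were tested. Of these, 21 were lower, 4 were higher and 7 were not called, with a median log2 fold change of -0.54, beside 34.4% lower and 35.4% higher among all tested genes and a median of 0.01. Another 11 genes of the lists were listed at 0 in all 6 libraries, among them Arg1, Otc, Sat2 and Aoc1, as were 7733 genes of the table, and such a 0 may mean not counted rather than not expressed. Of 10 tested genes listed under ornithine and arginine supply, 6 were lower, 1 was higher (Arg2, an arginase) and 3 were not called (median -0.47). Ass1, the argininosuccinate synthase that remakes arginine, measured 10.1, 11.7 and 12.4 CPM in sgSgf29 libraries, against 32.4, 31.7 and 34.6 CPM in sgCtrl libraries (log2 fold change -1.53, SE 0.10, adjusted p = 3.2e-11 by edgeR). The groups stood 2.88-fold apart, more than for any of the 10 polyamine genes. Slc7a1, a transporter that takes up arginine and ornithine, measured 63.2, 63.0 and 61.8 CPM in sgSgf29 libraries, against 90.4, 86.2 and 96.4 CPM in sgCtrl libraries (log2 fold change -0.54, adjusted p = 3.2e-07 by edgeR). Nos2, a nitric oxide synthase, was lower by edgeR as well (log2 fold change -0.88, adjusted p = 1.1e-07). It consumes arginine and does not supply it, so the 6 lower genes are not all genes of supply.

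Of 11 tested genes of the methionine cycle and of methylthioadenosine salvage, the route that recycles the by-product of Srm and Sms, 9 were lower, 0 were higher and 2 were not called (median -0.55). Mtap, which cleaves methylthioadenosine, measured 18.6, 22.9 and 23.1 CPM in sgSgf29 libraries, against 47.0, 45.7 and 47.1 CPM in sgCtrl libraries (log2 fold change -1.11, adjusted p = 5.9e-10 by edgeR). Mri1, the isomerase that acts next, measured 55.4, 47.3 and 53.2 CPM in sgSgf29 libraries, against 108.7, 105.9 and 112.7 CPM in sgCtrl libraries (log2 fold change -1.07, adjusted p = 3.2e-11 by edgeR). Both stood more than 2-fold lower, close to Srm and Sms. Mat2a, which makes S-adenosylmethionine, the substrate of Amd1, measured 116.8, 131.8 and 134.7 CPM in sgSgf29 libraries, against 184.3, 187.9 and 190.2 CPM in sgCtrl libraries (log2 fold change -0.55, adjusted p = 2.7e-07 by edgeR).

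Polyamine transport had 5 tested genes, with 3 lower, 1 higher and 1 not called. Of the lower genes, Atp13a4 was weakly expressed, at 25 to 46 reads, and its groups overlapped (log2 fold change -0.78, SE 0.29, adjusted p = 0.019 by edgeR). The genes called lower numbered 2 under library size scaling, and 2 to 3 when 1 library was left out. Slc3a2, a shared heavy chain of amino acid transporters that has been linked to polyamine export, measured 188.0, 167.9 and 154.5 CPM in sgSgf29 libraries, against 284.7, 285.7 and 291.4 CPM in sgCtrl libraries (log2 fold change -0.76, adjusted p = 6.7e-09 by edgeR). The organic cation transporter Slc22a3 was lower too (log2 fold change -0.62, adjusted p = 5.4e-06 by edgeR). Atp13a2, the lysosomal polyamine exporter, went the other way, at 57.5, 62.7 and 64.5 CPM in sgSgf29 libraries, against 37.4, 37.7 and 38.0 CPM in sgCtrl libraries (log2 fold change 0.71, SE 0.07, adjusted p = 2.1e-08 by edgeR).

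Spermidine is the substrate for hypusine, a modification of the translation factor eIF5A, and 2 of 3 tested genes of this step were lower. Eif5a measured 984.2, 991.2 and 1104 CPM in sgSgf29 libraries, against 1400, 1284 and 1540 CPM in sgCtrl libraries (log2 fold change -0.46, adjusted p = 3.3e-05 by edgeR). Dohh, which completes hypusine, measured 59.8, 55.8 and 61.4 CPM in sgSgf29 libraries, against 97.9, 80.1 and 96.2 CPM in sgCtrl libraries (log2 fold change -0.63, adjusted p = 3.0e-07 by edgeR). Dhps, which transfers the spermidine moiety, was not called (log2 fold change 0.10, adjusted p = 0.26 by edgeR). Of 3 tested paralogs of the 10 genes, Azin2 and Oaz3 were higher and Amd2 was lower. Azin2, the second antizyme inhibitor, measured 10.1, 9.74 and 9.77 CPM in sgSgf29 libraries, against 4.0, 3.62 and 4.65 CPM in sgCtrl libraries (log2 fold change 1.26, SE 0.15, adjusted p = 2.9e-07 by edgeR), so that both inhibitors of antizyme were higher. The call of Amd2 (log2 fold change -0.62, adjusted p = 0.025 by edgeR) was lost without sgSgf29 replicate 1 or 2 or sgCtrl replicate 1 or 3, at adjusted p-values of 0.088, 0.12, 0.088 and 0.075 by edgeR. It was also lost under library size scaling (adjusted p = 0.15 by edgeR) and with DESeq2 (adjusted p = 0.055).

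**Figure D5:**
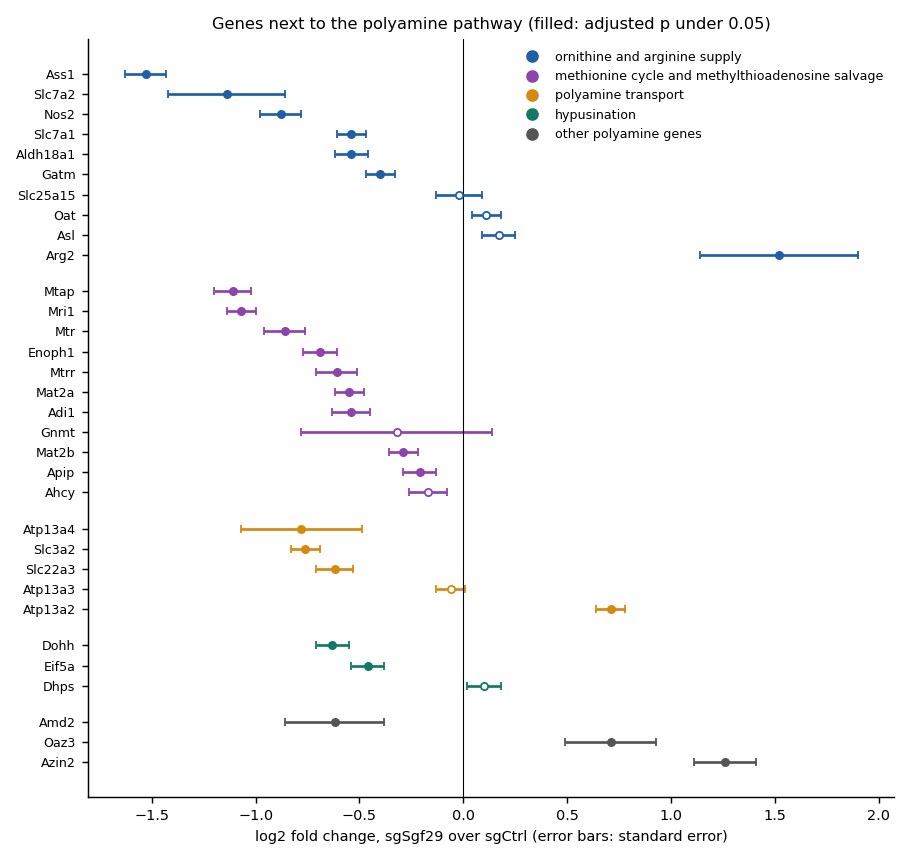
Log2 fold changes of sgSgf29 over sgCtrl (horizontal axis, bars for the standard error) of the 32 tested genes from 5 lists around polyamine metabolism, grouped by list and ordered inside each list. Filled points passed an adjusted p of 0.05. Points of 21 genes are filled to the left of 0 and those of 4 genes (Arg2, Atp13a2, Oaz3 and Azin2) to the right.

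The genes whose pattern over the 6 libraries was most like that of Odc1 were sought among 4079 tested genes with a mean of at least 50 CPM, by the Euclidean distance of log2 CPM centred on the sgCtrl mean. The nearest were Tomm5, a subunit of the mitochondrial import pore, at a distance of 0.07, and Hspa8, Impdh2, Snrpd1 and Mif, each at 0.09. Their log2 fold changes lay between -1.03 and -1.0. The nearest to Sat1 were Rars at 0.05, and Ndufs7, Btf3, Nol9 and Wdr77, each at 0.07, with log2 fold changes between -0.68 and -0.65. The distance describes likeness over 6 libraries that fall into 2 groups, and it carries no test.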

How the data were processed

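The authors deposited 1 table of raw counts per gene for the 6 RNA-seq libraries. According to the study's methods, reads were aligned to mm10 with STAR, counted with featureCounts and compared by edgeR after TMM. GRCm38 and STAR 2.6.0a appear in the submitters' notes on processing. The table has 5 bookkeeping rows of the kind htseq-count writes, which held 25.85 to 31.37% of each column and were left out. Which annotation and strand setting were used for counting is not given in the sources used here. Reads with several matches are 1 of those rows, so genes with copies can be undercounted.

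Counts were tested with edgeR 4.0.16 in R 4.3.3 (filterByExpr, minimum counts of 10 per library of median size and 15 over all libraries, TMM, quasi-likelihood test, Benjamini-Hochberg over all tested genes). No pair of libraries in a group agreed within sampling noise, as the chi-square statistic divided by its degrees of freedom was 4.6 to 16. The procedure was also run on counts simulated from the means and dispersions of the fit itself, and the outcome is not given here. Alternatives were RLE, upper-quartile and library size scaling, no filter, glmTreat, a replicate block, Amd2 added to Amd1, limma-voom (limma 3.58.1), DESeq2 1.42.0 and each library left out. Lengths and overlaps are from GENCODE on GRCm38, and promoter sequences from RefSeq.

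The 10 genes, the lists and the tests were chosen with earlier results of these data known. The text names the 10 genes, Sgf29, Amd2, and from each list up to 3 called genes per direction with the smallest adjusted p and at least 5 CPM in the higher group, and the 5 genes nearest to Odc1 and to Sat1. Arg2, Oaz3, Dhps and Atp13a4 were named after their values were seen. Arg2, Oaz3 and Atp13a4 were recomputed under the alternatives only as part of the counts of the lists.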

Additional observations from a re-analysis of the deposited data

How the results depend on the processing

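Over 15 alternatives, none of the 10 genes, Sgf29 or the list genes recomputed changed sign, and 517 of 549 recomputed values were labelled as unchanged. For a gene this meant the same direction and side of the threshold, and for counts of genes a value within 1.5 times. For a ratio it meant a shift smaller than the pooled SD of the groups, which for Smox over Paox is a wide margin. Some values could hardly move, such as those of other genes when Amd2 was added to Amd1, so the total does not measure robustness. The calls of Odc1, Srm and Sms held under all 15 alternatives. Their log2 fold changes were -1.04 to -0.78 for Odc1, -1.04 to -0.77 for Srm and -1.19 to -0.93 for Sms. Against the 1.5-fold threshold, 3 of the 10 polyamine genes were lower and 0 higher, and 1022 of all genes were lower and 1481 higher.

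Under library size scaling, 4 of the 10 polyamine genes were higher (Paox and Oaz1 in addition) and 4 were lower (without Amd1). Of all 11169 tested genes, 5575 were then called higher and 2385 lower. In the lists, the genes called higher then numbered 3 for ornithine and arginine supply, 2 for transport and 1 for hypusination, and the paralogs called lower numbered 0. Genes called lower then numbered 7 instead of 9 for the methionine cycle and methylthioadenosine salvage, and 2 instead of 3 for transport. Relative to the median of 0.24, the log2 fold changes under this scaling were -1.03 for Odc1, -1.02 for Srm, -1.17 for Sms, -0.42 for Amd1 and -0.68 for Sat1. For Paox and Oaz1, the genes called higher in addition, they were 0.13 and 0.08. With the motif window to 1000 bases, 3 genes held CACGTG instead of 1.

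Leaving out each library in turn gave 5 lower and 2 higher polyamine genes each time, and 3430 to 3833 genes lower and 3662 to 3943 higher among all tested genes. Without sgCtrl replicate 3, genes called higher in ornithine and arginine supply numbered 2, with a range of 1 to 2, and the paralogs called lower ranged from 0 to 1. Genes called lower ranged from 8 to 9 for the methionine cycle and methylthioadenosine salvage and from 2 to 3 for transport. Lists and their named genes were left out in this way after seeing the data.

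Same-numbered libraries of the groups were not correlated (r of 0.00507, 0.0555 and 0.0781), and not every library correlated best with its own number. With the number as a replicate block, 5 polyamine genes were lower and 2 higher, 3937 genes were lower and 4059 higher among all tested genes, and 2 genes of ornithine and arginine supply were higher.

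No Oaz1 pseudogene is among the rows used here, so its counts were not added to Oaz1. The ratio of Smox to Paox ranged from a log2 difference of 0.20 to 1.17 when 1 library was left out. Smox, at 3 to 23 reads, ranged from a log2 fold change of 0.22 to 1.44 and was not called under any alternative.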
